A study of Homo sapiens with 12 samples.

Results

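The albumin and alpha-fetoprotein locus is the stretch of chromosome 4 that holds ALB, AFP and AFM. It is described here by the histone marks found over it in HepG2, an established human liver cancer cell line. The members are the ChIP-seq peaks that overlap chr4:74200000-74400000 (GRCh37) in 3 deposited peak lists. They number 70 of the 273822 peaks of all lists: 19 of 66586 for H3K27ac, 47 of 182755 for H3K4me1 and 4 of 24481 for H3K4me3. The 12 libraries were 3 each for H3K27ac, H3K4me1, H3K4me3 and a control that is titled input but carries an anti-mouse IgG as its antibody label. All came from untreated HepG2 cells kept in Eagle's medium with fetal bovine serum, so no group differs in genotype, treatment or time. Whether replicates were separate cultures is not said in the labels. Going by their names, the lists pool the replicates of a mark. There was thus 1 value per peak and no spread between cultures, and nothing below was tested against replicate error. Per the series' design text the marks were meant to help choose among variants that might be causal.

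ALB, AFP and AFM are neighbours that read in the same direction and belong to the albumin gene family, which arose by duplication. ALB encodes serum albumin, the main carrier protein of blood plasma, made by hepatocytes. AFP encodes alpha-fetoprotein, the carrier protein of fetal plasma, which the liver largely stops making after birth and many liver cancers make again. AFM encodes afamin, a vitamin E-binding plasma protein. Acetylation of histone H3 at lysine 27 (H3K27ac) accompanies active enhancers and promoters, trimethylation at lysine 4 (H3K4me3) sits around active gene starts, and monomethylation there (H3K4me1) marks enhancers and promoter flanks. In the mouse, enhancers upstream of Afp are known to act on the genes of this cluster.

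In GRCh37, ALB runs from 74269972 to 74287129 (17.2 kb), AFP from 74301880 to 74321891 (20.0 kb) and AFM from 74347461 to 74369718 (22.3 kb), all on the plus strand. The gap between ALB and AFP is 14.8 kb and that between AFP and AFM 25.6 kb. In the RefSeq table (GRCh38.p14), used for names and order only, no other gene lies between the 3, and LINC02499 follows AFM. Positions below are counted in kb from a gene's first base, with minus for upstream. The signal value of a peak is the number the authors' peak caller gave it, and it serves here only for description and ranking inside a single list.

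All 3 genes matched an entry in the RefSeq promoter table, and the 250 bases before each start are shown because the 3 starts carried different marks. They are read 5′ to 3′ on the plus strand of GRCh38.p14, from chr4:73404037-73404286 for ALB, chr4:73435971-73436220 for AFP and chr4:73481495-73481744 for AFM. These positions are on another build than the peaks, and the RefSeq gene lengths differ from the spans above by 38, 58 and 1 bp. Motif positions are counted from the RefSeq starts, which need not be the same bases as the starts used for the peaks. Capitals mark letters that matched a searched motif.
ALB: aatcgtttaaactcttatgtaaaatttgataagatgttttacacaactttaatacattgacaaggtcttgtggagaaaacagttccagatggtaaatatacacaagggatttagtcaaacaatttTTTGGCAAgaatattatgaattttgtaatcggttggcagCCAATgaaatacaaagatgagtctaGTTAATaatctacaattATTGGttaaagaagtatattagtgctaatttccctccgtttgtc
AFP: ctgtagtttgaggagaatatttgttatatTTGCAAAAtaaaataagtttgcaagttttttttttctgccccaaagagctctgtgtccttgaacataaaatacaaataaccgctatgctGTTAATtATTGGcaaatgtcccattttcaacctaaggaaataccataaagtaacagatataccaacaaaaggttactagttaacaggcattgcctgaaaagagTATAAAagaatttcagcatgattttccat
AFM: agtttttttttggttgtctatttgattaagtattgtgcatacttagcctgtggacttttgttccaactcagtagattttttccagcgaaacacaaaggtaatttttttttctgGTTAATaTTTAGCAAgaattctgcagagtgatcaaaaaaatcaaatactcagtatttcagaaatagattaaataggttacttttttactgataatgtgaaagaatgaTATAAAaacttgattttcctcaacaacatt
The motifs were searched on both strands, and a match is a match of letters, not a shown binding site. GTTAAT, the core of the site of HNF1, a hepatocyte transcription factor, occurred once in each promoter, at -61 to -56 in ALB, -132 to -127 in AFP and -137 to -132 in AFM. It occurred in 6.23% of 35116 promoters of the table. TTGCNNAA, the letters of C/EBP, a factor of liver and fat cells, also matched once in each, against 9.05% of promoters. TATAAA, the TATA box, lay at -29 to -24 in AFP and -30 to -25 in AFM, and was held by 10.7% of promoters. These exact letters were not found in this window of ALB, which holds the similar stretch tatatta at about the same place. CCAAT matched at 2 places in ALB and 1 in AFP, and was held by 32.0% of promoters. The AFP match ends at -121 and begins 1 base after the GTTAAT match. None of the 3 windows held the FOXA letters TGTTTAC (2.98%) or TGTTTGC (3.23%), or the HNF4 letters CAAAGTCCA (0.325%). None held exactly GTTAAT followed after 1 base by ATTAAC, a double HNF1 site without any deviating letter. Only 2 of the 35116 promoters did (0.0057%), so this absence does not show that a double HNF1 site is lacking. Sites that deviate from these letters were not searched. Stretches that deviate in some letters begin at the GTTAAT match of all 3 windows: GTTAATaatctac in ALB, GTTAATtATTGGc in AFP and GTTAATaTTTAGC in AFM. The AFP window holds another, gttactagttaac, between its GTTAAT and TATAAA matches. All 3 promoters were poor in G and C, at 30.0% in ALB, 31.6% in AFP and 28.0% in AFM, against a median of 58% over the table. They held 3, 1 and 1 CG pairs against a median of 11.

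Across the locus the marks fell off from ALB to AFM. ALB lay almost whole inside H3K4me3 and for the most part inside H3K27ac. AFP carried H3K4me3 over its first 5.19 kb and little H3K27ac, and AFM had no H3K4me3 peak. H3K27ac peaks covered 83.0% of the ALB span (14.2 kb), 6.21% of AFP (1.24 kb) and 1.34% of AFM (0.299 kb). H3K4me3 peaks covered 91.3% of ALB (15.7 kb), 25.9% of AFP (5.19 kb) and 0% of AFM. H3K4me1 was distributed otherwise: it covered 18.8% of ALB, 9.22% of AFP and 5.44% of AFM, but 48.4% of the stretch between ALB and AFP. That stretch was also 46.4% covered by H3K27ac and 3.28% by H3K4me3. In the 70.0 kb before ALB, H3K4me1 covered 26.8% and H3K27ac 19.7%. After AFM, 30.3 kb held H3K4me1 over 9.52% and no H3K27ac or H3K4me3 peak.

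**Figure D1:**
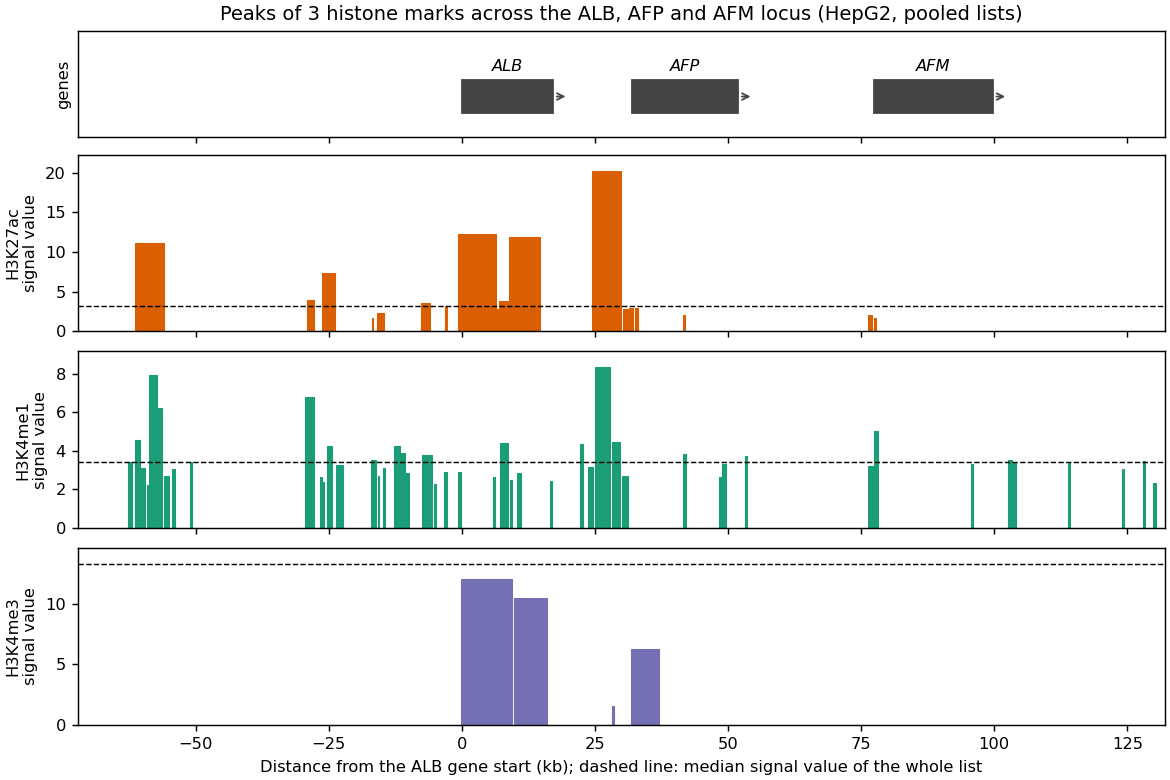
Peaks of H3K27ac, H3K4me1 and H3K4me3 drawn as boxes over their width, with the signal value as height, against the distance from the ALB gene start in kb, and with the 3 genes on top. H3K4me3 forms 2 adjoining wide peaks over ALB and 1 over the start of AFP, all below the dashed median of the list (13.3), and the highest H3K27ac box, at 20.2, lies between ALB and AFP.

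**Figure D2:**
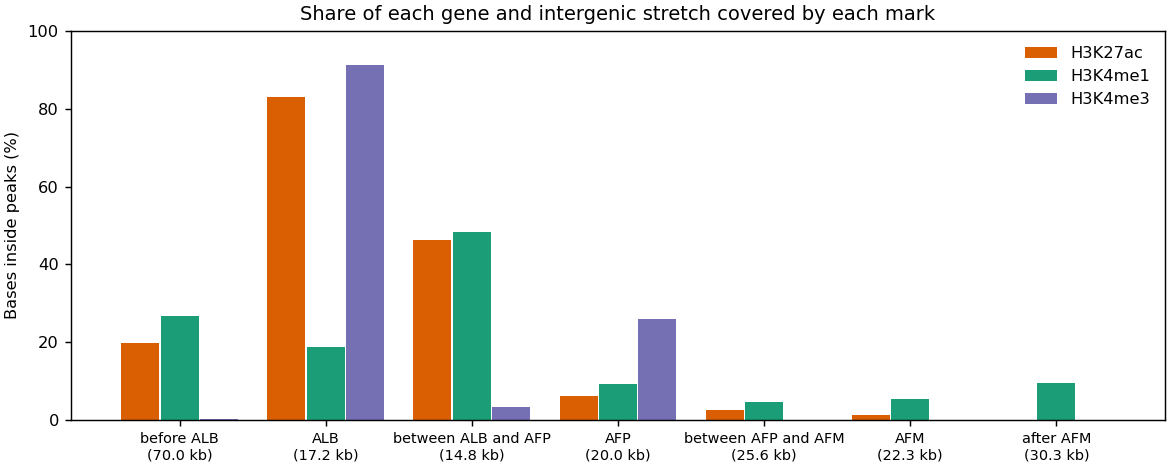
Percent of bases inside peaks of each mark (bars) for the 3 genes and the stretches around them, with lengths in kb. ALB has the highest H3K27ac and H3K4me3 bars, at 83.0% and 91.3%, and the stretch between ALB and AFP the highest H3K4me1 bar, at 48.4%.

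The H3K4me3 over ALB was made of 2 peaks. The first, chr4:74269786-74279473, ran from -0.19 to 9.50 kb, was 9688 bp wide and had a signal value of 12.1 and a −log10 p-value of 399. Its summit lay at 1.61 kb. The second, chr4:74279841-74285998, ran from 9.87 to 16.0 kb, was 6158 bp wide and had a signal value of 10.5, with its summit at 12.2 kb. The first was the 20th widest and the second the 225th widest of 24446 H3K4me3 peaks on chromosomes 1 to 22 and X, whose median width was 1536 bp. A gap of 367 bp parted them. With peaks less than 1000 bp apart joined, they made a domain of 16.2 kb (16213 bp) that held 93.4% of the ALB span. It was the 2nd widest of 22851 joined H3K4me3 domains, 10 bp short of the widest at 16223 bp and ahead of the 3rd at 15322 bp.

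Wide as they were, these peaks were not high. The list's median signal value was 13.3 (interquartile range 3.45 to 41.9), and 48.7% of its peaks were lower than the first ALB peak and 46.8% lower than the second. In the H3K4me3 list wide peaks as a rule had high signal values (Spearman's rho 0.883 across its peaks, which are not independent replicates). Among the 20 H3K4me3 peaks at least as wide as the first ALB peak, the median signal value was 55.5, and the ALB peak had the lowest. The second ALB peak was likewise the lowest of the 225 peaks at least as wide as itself (median 54.7). The peak over the start of AFP, described next, was the lowest of 453 (median 54.2). H3K4me3 peaks of at least 5000 bp made up 2.48% of the list, 606 in all, while 3 of the 4 members were that wide. Of those 606 the AFP peak had the lowest signal value, the second ALB peak the 4th lowest and the first the 7th lowest. The width limit was chosen after the values had been seen, and these places are a description without a test.

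**Figure D3:**
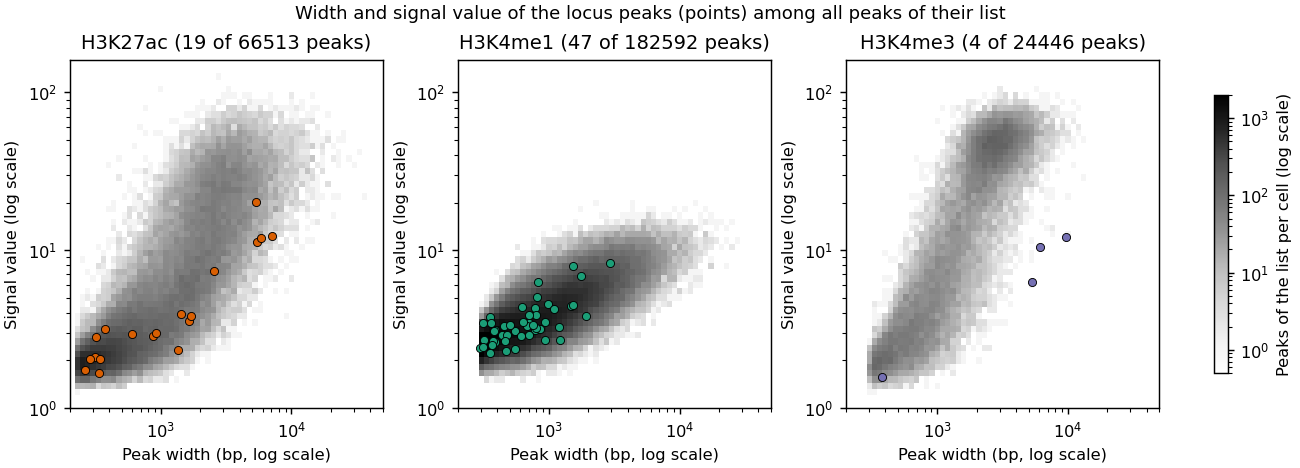
Signal value against peak width, both on log scales, for all peaks of each list on chromosomes 1 to 22 and X (grey cells, darker for more peaks) and for the members (points). The 3 wide H3K4me3 members, at 5294 to 9688 bp and signal values of 6.25 to 12.1, are wider than at least 98.1% of their list and lie below its median signal value of 13.3.

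H3K27ac over ALB followed the H3K4me3 closely and began further upstream. The peak at the gene start, chr4:74269247-74276327, ran from -0.72 to 6.36 kb (7081 bp) with a signal value of 12.3 and its summit at 1.64 kb, 29 bp from that of H3K4me3. A second wide peak, chr4:74278807-74284664, ran from 8.84 to 14.7 kb (5858 bp) with a signal value of 11.9. Between them lay narrower peaks of 316 and 1715 bp with signal values of 2.79 and 3.82, set apart by gaps of 139 to 168 bp. Both wide peaks were higher than about 80% of the H3K27ac list (80.5% and 80.0%) and wider than 98.7% and 97.7% of it. They too were low for their width: 40 of the 868 H3K27ac peaks at least as wide as the first had a signal value no higher than its own, and 94 of the 1523 for the second. Of the H3K27ac bases within ALB, 97.4% also lay in H3K4me3, against 37.9% over the whole list. In the other direction 88.6% of the H3K4me3 bases in ALB lay in H3K27ac, against 77.3% over the list.

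H3K4me1 was missing where ALB begins. A small peak at -0.67 to -0.19 kb (478 bp, signal value 2.90) ended before the gene, and the next began at 5.91 kb, which left 6.10 kb without H3K4me1. The ALB start itself lay inside a peak of H3K27ac and of H3K4me3 and outside H3K4me1. Within the gene 5 H3K4me1 peaks had their summits, with signal values of 2.42 to 4.43. Of these, 4 lay within both other marks between 5.91 and 11.0 kb, and the last, at 16.7 to 17.0 kb, overlapped neither. H3K4me1 covered 18.6% of the H3K4me3 bases of ALB, against 46.0% over the list. The median share over the 606 H3K4me3 peaks of at least 5000 bp was 33.6%. When a −log10 q-value of 5 or more was required, the small peak before the gene was lost, and H3K4me1 in ALB came down to a single peak of 1.47 kb.

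At AFP most of the H3K4me3 lay apart from the other marks, while 929 of the 1242 H3K27ac bases in the gene (74.8%) lay inside it. H3K4me3 formed a peak, chr4:74301775-74307068, from -0.10 to 5.19 kb (5294 bp, signal value 6.25, summit at 0.78 kb). H3K27ac near the start was weak, with peaks from -0.58 to 0.33 kb (911 bp, signal value 3.00) and from 0.59 to 1.19 kb (597 bp, signal value 2.93), both just below the list's median of 3.15. H3K4me1 ended at -0.62 kb and did not return until 9.57 kb, a stretch of 10.2 kb without it. As a result 4260 of the 5189 H3K4me3 bases in AFP carried neither other mark, and no base carried H3K4me1. Only 19.5% of the AFP H3K4me3 peak lay in H3K27ac, against a median of 96.9% (interquartile range 90.7 to 100) over the 606 H3K4me3 peaks of at least 5000 bp, and only 2 of these had less. H3K4me1 touched none of it, which was so for 13 of the 606, whose median was 33.6%. For the ALB peaks the H3K27ac shares were 95.4% and 78.3%, with 259 and 53 of the 606 lower. Their H3K4me1 shares were 22.9% and 11.4%, with 203 and 60 of the 606 lower. Further inside AFP were 1 narrow H3K27ac peak of 313 bp (signal value 2.10) within an H3K4me1 peak at about 10 kb, and 2 H3K4me1 peaks of 462 and 678 bp (2.66 and 3.30) towards the end of the gene.

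The strongest acetylation of the locus lay upstream of AFP, not over a gene start. The H3K27ac peak chr4:74294421-74299811, from -7.46 to -2.07 kb of the AFP start, was 5391 bp wide with a signal value of 20.2 and a −log10 p-value of 729. It ranked 7952nd of 66513 H3K27ac peaks, above 88.0% of them, and was the highest of the 19 members. H3K4me1 covered 85.7% of it. The strongest and widest H3K4me1 member, chr4:74294925-74297847 (2923 bp, signal value 8.34, above 96.9% of the list), lay wholly inside, with its summit at -5.25 kb. A second H3K4me1 peak of 1523 bp and signal value 4.47 followed. The H3K27ac summit, at -3.57 kb, lay inside this second peak. A narrow H3K4me3 peak of 379 bp at -3.61 to -3.23 kb, with a signal value of 1.57 that exceeded only 0.79% of the list, lay within both. Towards AFP, an H3K27ac peak of 868 bp (2.87) within an H3K4me1 peak of 1215 bp (2.68) filled -1.83 to -0.62 kb. Joined at 1000 bp, the H3K27ac peaks from this region to just past the AFP start made a domain of 8645 bp. On the ALB side 9.76 kb without H3K27ac parted it from the domain over ALB.

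**Figure D4:**
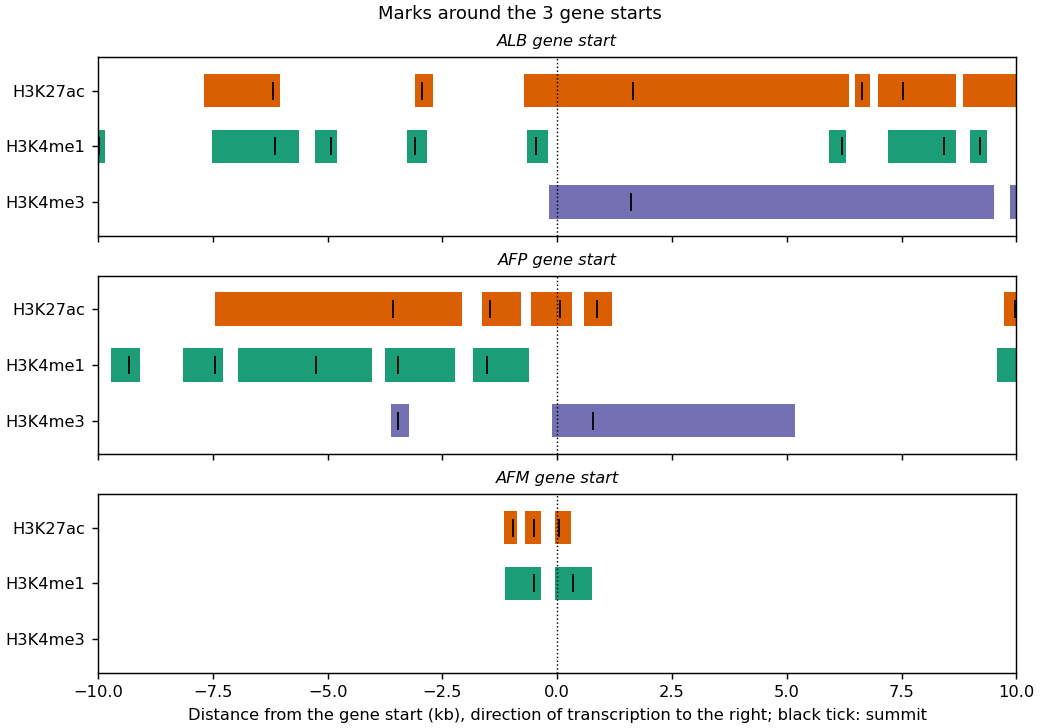
Peaks (bars) and summits (black ticks) of each mark within 10 kb of the 3 gene starts, in kb in the direction of transcription. At ALB H3K27ac and H3K4me3 overlap downstream of the start, at AFP H3K27ac lies mainly before the start and H3K4me3 after it, and at AFM short H3K27ac and H3K4me1 peaks stand without H3K4me3.

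AFM carried H3K4me1 and weak H3K27ac at its start and no H3K4me3. H3K4me1 peaks from -1.14 to -0.35 kb (797 bp, signal value 3.19) and from -0.04 to 0.76 kb (802 bp, 5.03) covered 72.7% of the bases within 1000 bp of the start. The second was higher than 79.6% of its list and was the fifth highest H3K4me1 member. H3K27ac there consisted of 3 peaks of 285, 343 and 338 bp with signal values of 2.03, 2.05 and 1.66, which exceeded 19.0%, 19.8% and 2.54% of the list. The last of these lay on the start itself. The nearest H3K4me3 edge was 40.4 kb away, at the AFP peak. None of the 3 H3K27ac peaks reached a −log10 q-value of 5, so that with this limit AFM had no H3K27ac. Inside the gene was 1 more H3K4me1 peak, of 451 bp (3.31). Within 1000 bp of the start, H3K27ac covered 86.3% of bases at ALB, 77.3% at AFP and 40.5% at AFM, and H3K4me3 59.3%, 55.3% and 0%. H3K4me1 covered 23.9%, 19.2% and 72.7%, an order that is not that of the other marks.

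Before ALB lay 7 H3K27ac and 24 H3K4me1 peaks by their summits, and no H3K4me3 peak had its summit there. All 7 H3K27ac peaks overlapped H3K4me1, as did 87.4% of the list, and none overlapped H3K4me3, which 31.7% of the list did. The most distant was also the largest, chr4:74208571-74214011, at -61.4 to -56.0 kb (5441 bp, signal value 11.2, above 79.0% of the list), and H3K4me1 covered 81.1% of it. Inside it lay the H3K4me1 peaks with the 2nd and 4th highest signal values of the locus, at 7.91 (1530 bp) and 6.24 (816 bp). Nearer to the gene, an H3K27ac peak of 2530 bp at -26.3 to -23.8 kb had a signal value of 7.35, and the H3K4me1 peak with the 3rd highest signal value (6.82, 1762 bp) lay at -29.5 to -27.7 kb. The other 5 H3K27ac peaks of this stretch had signal values of 1.73 to 3.93, among them one of 1642 bp at -7.68 to -6.04 kb and one of 373 bp at -3.09 to -2.71 kb. The 24 H3K4me1 peaks before ALB had a median signal value of 3.19 (2.21 to 7.91), and 15 of them overlapped H3K27ac, beside 33.4% of the list. After AFM none of 6 H3K4me1 peaks (2.35 to 3.51) overlapped another mark, which was also the case for 61.6% of the list.

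How the members overlapped other marks was set beside the whole lists. For H3K27ac, 16 of 19 members overlapped H3K4me1, where 87.4% of the list did, and 7 overlapped H3K4me3, where 31.7% did. Neither share stood far from its list. None of the 19 lacked both methylations (8.52% of the list). For H3K4me1, 26 of 47 members (55.3%) overlapped H3K27ac beside 33.4% of the list, and 5 of 47 (10.6%) overlapped H3K4me3 beside 18.9%. These neighbouring peaks are not independent, and no test was made. Free of both other marks were 21 of 47 H3K4me1 members (44.7%), against 61.6%. All 4 H3K4me3 members overlapped H3K27ac (77.5% of the list), and 3 overlapped H3K4me1 (92.7%). A −log10 q-value of 5 or more was reached by 15 of 19 H3K27ac (77.5% of the list), 33 of 47 H3K4me1 (68.7%) and 3 of 4 H3K4me3 members (96.3%). With all lists held to it, 10 of 15 H3K27ac members overlapped H3K4me1 (85.6% of the list so limited). Of the H3K4me1 members 15 of 33 overlapped H3K27ac (39.2%), and of the H3K4me3 members 1 of 3 overlapped H3K4me1 (87.7%).

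In signal value the members lay close to or below their lists. The median was 3.00 for H3K27ac against 3.15 over the list, 3.30 for H3K4me1 against 3.42 and 8.38 for H3K4me3 against 13.3. Of the members 9 of 19, 20 of 47 and 0 of 4 were above their list's median. Width differed more: 4 H3K27ac members were at least 5000 bp wide, 21.1% against 3.57% of the list, while none of the H3K4me1 members was (1.43% of the list). No H3K27ac or H3K4me3 member was in the top 5% of its list by signal value, whereas 4 and 3 were by width.

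Base by base, 140.4 kb of the locus carried no mark. H3K27ac with H3K4me1 covered 16.5 kb, H3K4me1 alone 16.5 kb and H3K27ac with H3K4me3 12.2 kb. Of that last combination 10959 bases lay in ALB. H3K4me3 alone covered 6042 bases, of which 4260 were in AFP and 1782 in ALB. All 3 marks met over 3298 bases, 2919 of them in ALB. H3K4me1 with H3K4me3 but without H3K27ac did not occur.

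By covered length the locus was densely marked for the genome. Among 15186 consecutive windows of 200 kb, it ranked 188th for H3K4me3 with 21.5 kb, 426th for H3K27ac with 37.1 kb and 1855th for H3K4me1 with 36.3 kb. Median windows held 0.36 kb (359.5 bp), 0.51 kb (509 bp) and 3.56 kb (3555 bp), and 49.2%, 46.4% and 26.9% of windows held none. Weighted by signal value, however, its H3K4me3 exceeded 81.4% of windows in place of 98.8%, and its H3K27ac 91.3% in place of 97.2%. Windows of other genes for plasma proteins of the liver were placed from general knowledge of GRCh37. They lay close to the albumin locus in some values and apart from it in others. That of the fibrinogen genes, whose products form blood clots, had 16.3 kb of H3K4me3 but a highest signal value of 44.5, against 12.1 at the albumin locus, and 17.8 kb of H3K27ac. The window of APOA1 and its neighbours, apolipoproteins of plasma lipid transport, had 14.1 kb of H3K4me3 with a highest value of 63.0, and that of SERPINA1, which encodes the elastase inhibitor alpha-1 antitrypsin, 11.5 kb with 47.3. H3K27ac covered 38.2 kb and 50.1 kb of these windows, with highest signal values of 49.2 and 23.8, against 20.2 at the albumin locus and 13.0 in the fibrinogen window. H3K4me1 covered 32.0 kb at fibrinogen, 57.0 kb at APOA1 and 116.2 kb at SERPINA1. Of these 4 windows the albumin locus thus had the most H3K4me3 by length and the lowest maximum of H3K4me3 signal value.

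**Figure D5:**
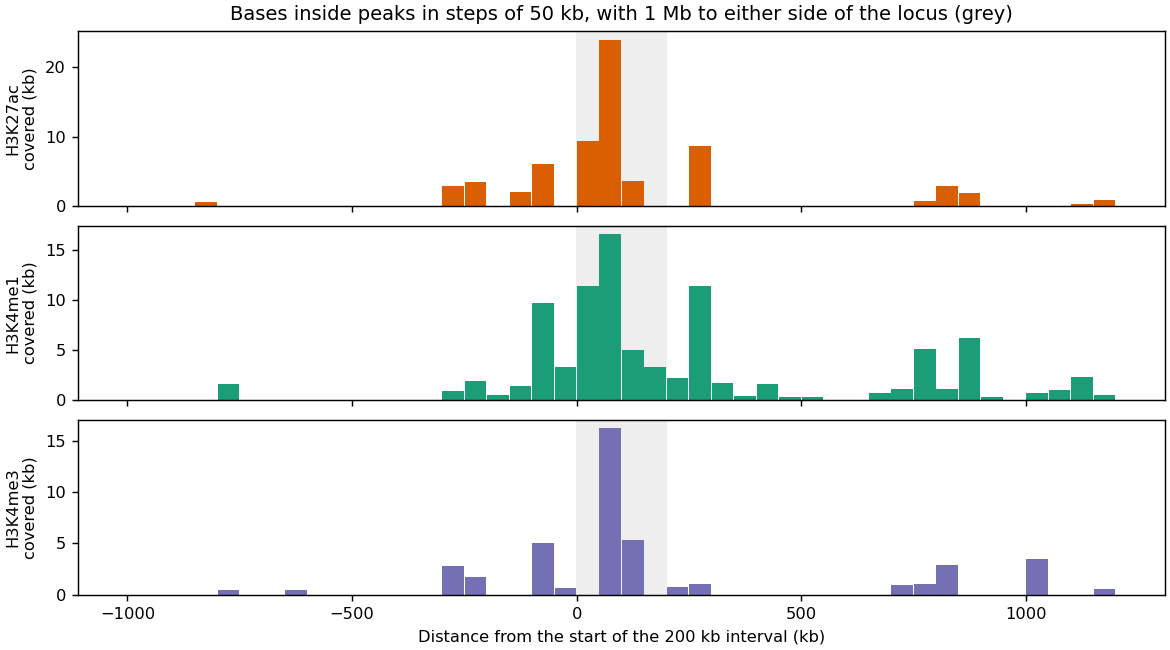
Bases inside peaks of each mark, in kb per step of 50 kb, over the locus (grey) and 1 Mb to either side, against the distance from the start of the interval. The step that holds ALB and the AFP upstream region has the most of each mark, 24.0 kb of H3K27ac, 16.6 kb of H3K4me1 and 16.2 kb of H3K4me3.

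Beyond the locus H3K27ac and H3K4me3 were absent from most steps. Within 1 Mb before it, 15 of 20 steps of 50 kb held no H3K27ac and the fullest held 6.03 kb, and within 1 Mb after it 14 of 20 held none and the fullest 8.60 kb. H3K4me3 was absent from 14 of 20 steps before (fullest 5.09 kb) and 13 of 20 after (3.51 kb). H3K4me1 was absent from 13 of 20 steps before (fullest 9.72 kb) but from 3 of 20 after, where the fullest held 11.418 kb. Of the steps inside, only the one with ALB held more, and the others held 11.376, 5.01 and 3.33 kb. The last step inside held no H3K27ac. The step from 50 to 100 kb inside the interval, with all of ALB and the strong peak upstream of AFP, held 24.0 kb of H3K27ac. The nearest H3K27ac peaks outside lay 59.1 kb before and 64.0 kb after the interval, with signal values of 2.57 and 10.1. From the last H3K27ac peak, at the AFM start, to the next was 116.3 kb. The nearest H3K4me3 peaks outside, 34.1 kb before and 16.3 kb after, were narrow, at 644 and 720 bp, with signal values of 3.05 and 4.57. H3K4me1 continued closest to the borders, with peaks 3.66 kb before and 9.71 kb after.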

How the data were processed

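The submitters' processing notes name the peak caller MACS2 and the build hg19 (GRCh37), with no further detail. The version, settings, aligner and use of the control libraries are not given in the sources used here, and the pooling of replicates is known from the list names only. The lists were deposited with a signal value, a p-value and q-value as −log10, a score and a summit offset per peak. What the deposited signal value is relative to is not stated, the deposited score was not used, and depth per library is unknown. Starts were moved to count from 1. No peaks of a list overlapped each other. Overlap means at least 1 bp in common. Ranks and shares of lists used chromosomes 1 to 22 and X, and windows ran to the last peak of each chromosome. Gene spans are those that define the locus. An annotation or genome of GRCh37 was not used here, so exons, sequences under peaks, GC (the other family member) and the planned liver and non-liver marker genes were not analysed. The members, lists and rules were chosen with earlier results of these data known. Genes described by their own peaks are the members; other genes only name comparison windows or neighbours. Peaks named are all of a list with at most 8 members, otherwise the 5 highest, the widest and those within 1000 bp of a gene start. Other peaks named were chosen after their values were seen. No test was run, since each mark has 1 pooled list. The interval functions were tested on simulated data. Python 3.11.15, numpy 2.4.6, pandas 2.3.3 and matplotlib 3.10.9 were used. The alternatives were the stronger 50% of each list, only peaks whose −log10 q-value reached 5, joining peaks within 1000 bp, 50% of a member covered, 200 bp to either side of summits, 500 and 2000 bp around gene starts, ranking by −log10 p-value, weighting by signal value and windows shifted by 100 kb. Restricting H3K4me3 to peaks of at least 5000 bp was added after seeing the data.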

Additional observations from a re-analysis of the deposited data

How the results depend on the processing

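No paired analysis was possible because each mark has 1 pooled list, and for the same reason no replicate could be left out. Counts, lengths and places in percent are called changed where they moved by more than 1.5 times. Of 87 alternative values for 24 main results, 53 stayed within that and 34 did not. The 53 overstate how stable the results were. A high place among windows can hardly fall by that much, and 98.8% to 81.4% for H3K4me3 counted as unchanged. The 0 kb of H3K4me3 in AFM also counted as unchanged, and stricter limits could not alter it. The strongest effect came from the stronger 50% of each list, which removes each H3K4me3 member, since all 4 are below the list's median. It left 9 H3K27ac, 20 H3K4me1 and 0 H3K4me3 peaks, 21.0 kb of H3K4me1 and 0 kb of H3K4me3 in the locus, and a place above 0% of windows for H3K4me3. By gene it left 1.47 kb of H3K4me1 and 0 kb of H3K4me3 in ALB, 0 kb of H3K27ac, 0.705 kb of H3K4me1 and 0 kb of H3K4me3 in AFP, and 0 kb of H3K27ac and 0.759 kb of H3K4me1 in AFM. Overlaps were then 6 H3K27ac members with H3K4me1, 9 H3K4me1 members with H3K27ac and 0 for each pair with H3K4me3. A −log10 q-value of at least 5 left 1.47 kb of H3K4me1 in ALB and 0 kb of H3K27ac in AFM. Overlaps were 10 for H3K27ac with H3K4me1, 15 for H3K4me1 with H3K27ac, 1 for H3K4me1 with H3K4me3 and 1 for H3K4me3 with H3K4me1. Joining peaks within 1000 bp gave 10 H3K27ac and 22 H3K4me1 regions and 5.44 kb of H3K4me1 in ALB, by construction. Overlaps were 10 for H3K27ac with H3K4me1, 2 for H3K27ac with H3K4me3, 11 for H3K4me1 with H3K27ac and 2 for H3K4me1 with H3K4me3. Of the H3K4me3 members, 1 had at least 50% covered by H3K4me1, and 1 had H3K4me1 within 200 bp of its summit. Fewer peaks under the stricter limits follow from their construction. Of 71 further values for gene starts and single peaks, 21 moved by more than 1.5 times. Among the windows, weighting by signal value moved the rank of the locus from 188 to 2822 for H3K4me3. The rank moved from 426 to 1316 for H3K27ac and from 1855 to 2257 for H3K4me1. With the other windows shifted by 100 kb and the locus interval kept in place, the ranks were 179, 439 and 1838. These ranks do not show how far the result depends on where the interval begins. The depth of the libraries is unknown, so a stretch without a peak is a stretch where none was called.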
